A study of Mus musculus with 6 samples.

Results

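Interferon-induced genes and interferon regulatory factors were followed in RNA of the mouse cochlear modiolus, where the spiral ganglion neurons (SGNs) lie in bone, the primary neurons of hearing. Members were all protein-coding genes whose symbol marks them as interferon-induced (the Ifi, Ifit, Ifitm, Isg, Gbp, Oas and Mx genes and Rsad2) or as an interferon regulatory factor or its binding protein (Irf). The rule used names only and no measured value, and it gave 69 genes, of which 68 are described here. At least 1 transcript was listed in the count table for 51 of the 68, among 17599 protein-coding genes listed in all, and 40 had enough counts to be tested.

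Both groups were C57BL/6 mice, with 3 libraries each, and the libraries came from whole modiolus tissue although the cell type is labelled as spiral ganglion neuron. Mice entered the model at 8 weeks of age, and all were male. Degenerated mice received 1 g/kg kanamycin sulfate under the skin and, after 30 min, 0.4 g/kg furosemide into the abdomen, a combination that destroys hair cells within days and leaves the SGNs to degenerate slowly. Control mice received saline, and the tissue was compared on day 30. The control animals of this comparison carried no engineered allele that the labels name. The sources used here do not give whether each library is 1 animal or a pool, so p-values measure the spread between these libraries, which may be technical in part.

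Interferons are secreted proteins that cells release when a virus, foreign nucleic acid or tissue injury is sensed. Type I and type II interferons bind separate receptors, whose Janus kinases start a signal that reaches the nucleus, where IRF9 takes part in switching on a large set of antiviral genes. Interferon regulatory factors are a family of DNA-binding proteins, of which some act downstream of nucleic acid sensors to start interferon transcription and others steer immune cell development. In nervous tissue, microglia, macrophages, glia and neurons can all express interferon-induced genes.

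Promoter sequences are shown first because regulatory factors and STAT complexes recognise known letter patterns. RefSeq promoter windows of GRCm38.p6, reaching from 250 bases before to 50 bases after a start site, were matched by symbol for 55 of the 68 members. The letters GAAA, any 2 bases and GAAA again, the core of the interferon-stimulated response element that interferon regulatory factors contact, were searched on both strands. They were found for 27 of the 55 members with a window, or 49.1%, and for 1079 of 27025 genes in all, or 3.99%. The pattern TTCNNNGAA, the core of the sites that STAT dimers bind, reads the same on both strands and was found for 13 of the 55, or 23.6%, and for 9.55% of all genes. Many members are neighbouring copies of one another, so their windows are not independent.

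The HIN-200 genes of the Ifi cluster on chromosome 1, whose products bind DNA in the nucleus and cytoplasm, are shown first because the same core recurs almost letter for letter in 5 of the 6 that were tested, with no match in the window of Ifi209. Capitals mark the match to this core, and each line is read in the direction of the gene, which lies on the minus strand in these 4.
Ifi206 (chr1:173491334-173491373, minus strand): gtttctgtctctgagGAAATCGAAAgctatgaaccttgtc
Ifi213 (chr1:173599321-173599360, minus strand): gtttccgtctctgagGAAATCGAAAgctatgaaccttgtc
Ifi207 (chr1:173741826-173741865, minus strand): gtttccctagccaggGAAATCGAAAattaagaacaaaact
Ifi203 (chr1:173942503-173942542, minus strand): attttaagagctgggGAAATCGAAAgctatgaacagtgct
In Ifi206 the match ends 30 bases before the start site, in Ifi207 31 bases and in Ifi203 25 bases before it.

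Among the Ifit genes on chromosome 19, whose products hold back the translation of foreign RNA, Ifit1, Ifit1bl2 and Ifit3 each carry a pair of matches, and the window of Ifit2 holds none. Ifit1 and Ifit1bl2 stand head to head and share one stretch of DNA with a pair of matches, which reads as TTTC on the Ifit1 strand and as GAAA on the other. The stretch is shown for both genes, since their counts differed by a wide margin (below), and Ifit3 is shown beside them.
Ifit1 (chr19:34640789-34640828, plus strand): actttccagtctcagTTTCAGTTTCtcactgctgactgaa
Ifit1bl2 (chr19:34640789-34640828, minus strand): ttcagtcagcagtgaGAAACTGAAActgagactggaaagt
Ifit3 (chr19:34583392-34583431, plus strand): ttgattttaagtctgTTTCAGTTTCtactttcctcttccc

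Among the guanylate-binding proteins, large GTPases that attack the membranes of intracellular microbes, Gbp3 and Gbp7 on chromosome 3 both held the core close to the start site. Oas3 makes the second messenger that activates RNase L, and Ifitm2 is a small membrane protein that blocks virus entry.
Gbp3 (chr3:142559984-142560023, plus strand): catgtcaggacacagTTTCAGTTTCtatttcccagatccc
Gbp7 (chr3:142530268-142530307, plus strand): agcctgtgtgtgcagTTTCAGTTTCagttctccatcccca
Oas3 (chr5:120777710-120777749, minus strand): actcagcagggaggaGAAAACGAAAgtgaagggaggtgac
Ifitm2 (chr7:140955983-140956022, minus strand): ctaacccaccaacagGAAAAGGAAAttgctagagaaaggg
Ifitm10, the only member that passed the call described below, had 3 windows, and the core was in none of them. The 100 bases before 1 of its start sites are printed in lower case, and they are rich in G and C.
Ifitm10 (chr7:142372260-142372359, minus strand): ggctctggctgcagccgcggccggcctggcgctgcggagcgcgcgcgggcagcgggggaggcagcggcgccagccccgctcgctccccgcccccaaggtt
A match is a description of letters and no match says only that these letters are not in the window.

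The table held 12480876 to 15549319 counts per library over the listed transcripts. Markers showed a mixed tissue: all 12 SGN markers were listed, with 6004 to 12833 CPM (counts scaled to library size) summed in a library, beside 4913 to 9811 for Schwann cells. The libraries also differed within groups in genes of blood and marrow. The red cell list, with 5 of 8 genes listed, summed to 6400, 41372 and 21417 CPM in control replicates 1, 2 and 3 and to 7215, 3479 and 16706 in degenerated replicates 1, 2 and 3. Neutrophil and myeloid precursor genes, 8 of 12 listed, summed to 256, 13557 and 6707 against 656, 1961 and 4697 CPM, and B cell genes, 8 of 9 listed, to 63.2, 1032 and 245 against 151, 174 and 612 CPM. Control replicate 2 was the highest in all 3 lists, and control replicate 1 with degenerated replicates 1 and 2 held the 3 lowest values of each. Macrophage genes, 10 of 17 listed, summed to 675 to 1014 CPM in control and 770 to 1095 in degenerated libraries, and of the 8 tested 4 were higher and 4 lower, with C1qb and C1qc, complement genes of macrophages and microglia, called higher. Hair cell markers summed to 711 to 1016 CPM in control and 490 to 613 in degenerated libraries, without overlap. Much of that gap was Ocm, with 140 to 173 CPM in control and 0.789 to 3.90 CPM in degenerated libraries. Ocm and Slc26a5 were called lower, and Strc did not overlap either. Myo7a, Otof, Pou4f3, Myo6 and Tmc1 overlapped between the groups and were not called. In such tissue, fewer cells of a type and less RNA per cell cannot be told apart.

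Interferon-induced genes and interferon regulatory factors did not move together between the groups. Of the 40 members tested, 20 were higher and 20 lower in degenerated libraries, with log2 fold changes (log2FC, degenerated over control) from -1.27 to 1.14. Their median was 0.01, beside 0.00 over all 14118 genes tested. Calls needed an unadjusted p (edgeR, quasi-likelihood) below 0.01 and a log2FC beyond 0.2 in size, and 0 members were called higher and 1 lower. Over all genes 2.73% were called, 2.01% higher and 0.715% lower, and 1 call among 40 is no result about the members as a group. At an unadjusted p under 0.05 there were 2 members, Ifitm10 and Ifitm1, where 9.68% of all genes passed. After Benjamini-Hochberg adjustment over all genes, 0 members and 0% of all genes passed 0.05 by edgeR or limma-voom, and by DESeq2 1 member did, Ifitm10, beside 2.71% of all genes. The groups were apart, with no overlap, in 3 members (Ifitm10, Ifitm1 and Ifi203), against 17.7% of all genes.

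**Figure D1:**
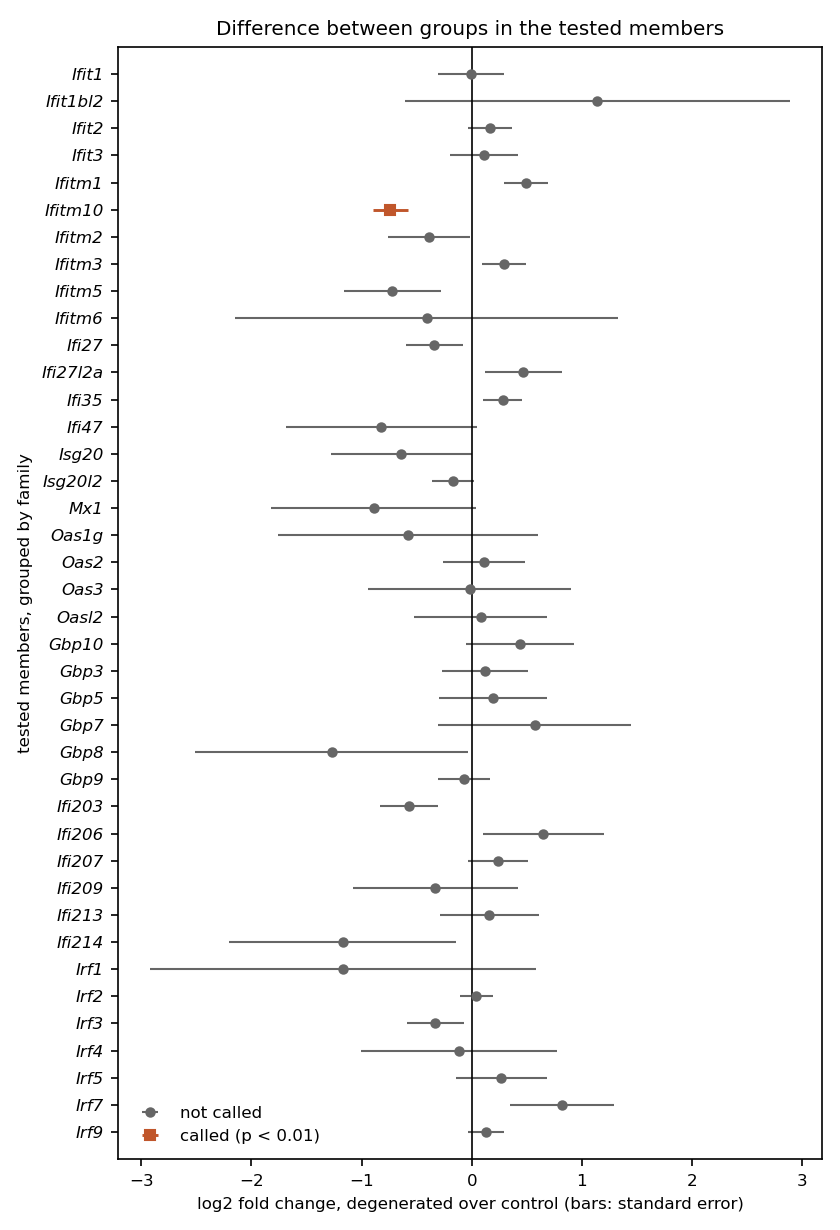
Log2FC of each of the 40 tested members, degenerated over control, with bars of 1 standard error (SE) from edgeR's fit, grouped by gene family. Ifitm10, drawn as a square at -0.74, is the only member called, and most other bars reach across 0.

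The absence of calls went with a wide spread between replicates. The median coefficient of variation within groups was 37.3% over the tested members, against 25.8% over all genes. An absolute log2FC below 0.5 was found in 26 of the 40, a share near that of all genes (9672 of 14118). Ifitm3, Ifi27l2a, Ifitm2 and Ifitm1 had the highest levels per length, at 965, 577, 530 and 277 TPM (counts over transcript length, scaled alike in each library and computed here, mean of the 6 libraries).

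Ifitm genes encode small membrane proteins, of which Ifitm1, Ifitm2 and Ifitm3 are interferon-induced and stop viruses from fusing with the cell. Of the 7 members, 6 were tested, and these lie within one region of chromosome 7. Ifitm10 (ENSMUSG00000045777, GRCm38 chromosome 7, 142325837 to 142373753, 5 of 6 transcripts listed) is a family member of poorly known function. It had 88.5, 83.3 and 82.8 CPM in control replicates 1, 2 and 3 and 52.5, 58.4 and 41.8 CPM in degenerated replicates 1, 2 and 3. Every control library was above every degenerated library. The group means were 84.9 ± 3.16 CPM in control and 50.9 ± 8.39 in degenerated libraries (± SD, 3 per group), and the log2FC was -0.74 ± 0.16 (± SE, as for all log2FCs below). By edgeR the unadjusted p was 0.00359 and the adjusted p 0.307, and DESeq2 gave an adjusted p of 0.00731.

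A single protein-coding transcript, Ifitm10-202, held 94.5% of the counts of Ifitm10. Without control replicate 1, control replicate 2 or degenerated replicate 1 the log2FC was -0.72, -0.75 and -0.77, and the unadjusted p of 0.0110, 0.0103 and 0.0106 missed the call. Among control replicate 1 and degenerated replicates 1 and 2, which were low in blood genes, the difference was -0.67 on the scale of log2(CPM + 1), and among the other 3 libraries it was -0.97. A single library stood for 1 of the groups in each part, and the split was chosen after seeing the data. SGN markers summed to 9526 to 12833 CPM in control and 6004 to 8683 in degenerated libraries. This sum and the hair cell sum given above were lower alongside Ifitm10, though several genes of both lists overlapped between the groups. Of the 11 SGN markers tested, 2 were higher and 0 were called. Tubb3 (log2FC -0.04 ± 0.13) and Uchl1 (-0.07 ± 0.11) hardly differed. The fibroblast and bone sum was lower too, at 1845 to 2267 CPM in control and 1227 to 1746 in degenerated libraries. Of its 4 tested genes, 1 was higher and 1 was called lower. The part of any of these cell types in the fall of Ifitm10 was not tested.

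Ifitm1 (chromosome 7 from 140967221 to 140969825, with all 3 transcripts listed) went the other way. It had 92.9, 67.8 and 111 CPM in control and 136, 126 and 120 CPM in degenerated libraries, and the groups did not overlap. Its means were 90.5 ± 21.7 and 127 ± 8.24 CPM (SD, n = 3 each), with a log2FC of 0.49 ± 0.20 (edgeR unadjusted p 0.0451, adjusted p 0.502), so that it was not called. Leaving out single libraries gave 0.32 to 0.66. The difference was 0.49 among the libraries low in blood genes and 0.46 among the others, on the scale of log2(CPM + 1). As for Ifitm10, a single library stood for 1 of the groups in each part, so these values carry no spread.

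Ifitm3, the member with the highest level, had 319, 245 and 362 CPM in control and 389, 309 and 436 CPM in degenerated libraries. The groups overlapped, and its log2FC of 0.29 ± 0.20 was not called (unadjusted p 0.186). Ifitm2 had 227, 274 and 123 CPM in control and 128, 222 and 125 CPM in degenerated libraries, a log2FC of -0.39 ± 0.37. Ifitm5, which is known from osteoblasts, had 6.02, 11.1 and 5.87 against 5.06, 2.82 and 6.08 CPM and a log2FC of -0.72 ± 0.44. The fibroblast and bone list, 6 of 10 genes listed, summed to 1845 to 2267 CPM in control and 1227 to 1746 in degenerated libraries. Of its 4 tested genes, Bglap was called lower (log2FC -1.54 ± 0.40). Sp7 (-1.16 ± 0.35), Col1a2 (-0.47 ± 0.19) and Pdgfra (0.06 ± 0.15) were not called. The part of this list in Ifitm5 was not tested. Ifitm6 was near 0 in control replicate 1 and degenerated replicates 1 and 2 (0 to 0.0704 CPM), the libraries low in blood genes, and had 1.66 to 3.16 CPM in the other 3. Ifitm genes are close copies of one another, and reads that match several of them may have been split.

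**Figure D2:**
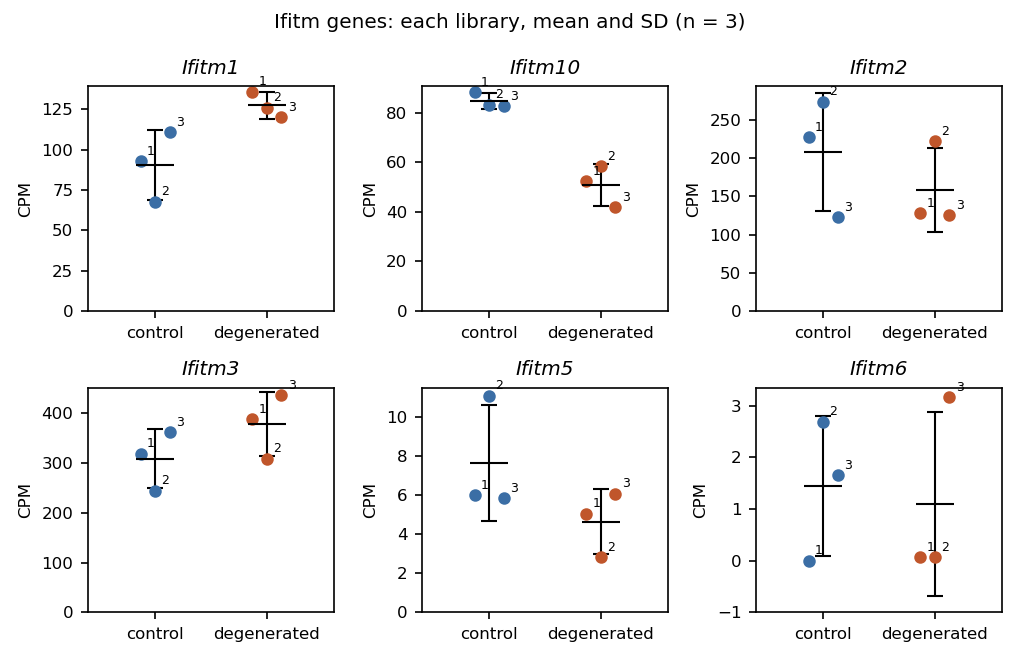
CPM of the 6 tested Ifitm genes in each library (points, numbered by replicate), with the group mean and SD (n = 3), where lower bars may reach below 0. Ifitm10 has 82.8 to 88.5 CPM in control and 41.8 to 58.4 in degenerated libraries, Ifitm1 lies the other way round, and the other 4 overlap.

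Interferon regulatory factors were described next, since they stand at the head of the response. Of 8 members, all were listed, 7 were tested, 4 were higher and 3 lower, and none was called. Irf9, which passes the type I interferon signal on to DNA, had 105, 95.8 and 113 CPM in control and 99.7, 106 and 137 CPM in degenerated libraries. Its level was the highest per length of the family, at 79.0 TPM, and its log2FC was 0.13 ± 0.16. Irf3, which is present in resting cells and activated by phosphorylation, had 37.7, 58.2 and 39.2 against 35.2, 28.1 and 44.2 CPM, a log2FC of -0.33 ± 0.26. Neither differed beyond the spread between libraries.

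Irf7, the factor whose own transcription is driven by interferon, had 9.13, 12.0 and 17.4 CPM in control libraries and 15.3, 14.9 and 37.7 CPM in degenerated libraries. Control replicate 3 was above degenerated replicates 1 and 2, and degenerated replicate 3 stood above all others. Its log2FC was 0.82 ± 0.47 (edgeR unadjusted p 0.132, adjusted p 0.638). Without degenerated replicate 3 it was 0.23.

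Irf4, which directs B cell and plasma cell development, had 3.64, 36.9 and 11.6 CPM in control and 7.93, 12.0 and 28.0 CPM in degenerated libraries. Irf5, a factor of myeloid and B cells, had 12.4, 35.2 and 20.9 against 26.1, 22.7 and 33.7 CPM. In both, control replicate 1 was the lowest and control replicate 2 the highest, as in the summed B cell genes given above, whose part in these values was not tested. Their log2FCs were -0.12 ± 0.89 and 0.27 ± 0.41. For Irf4 the direction depended on the libraries, with 1.06 without control replicate 2 and -0.80 without degenerated replicate 3, and limma-voom gave 0.25.

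Irf1, an early factor of the type II response, rested on 2 of 10 transcripts and had 2.78, 8.49 and 0.255 CPM in control and 4.86, 0.211 and 0 CPM in degenerated libraries. Its log2FC was -1.17 ± 1.75, so that no direction can be read at this depth. Irf8, a factor of macrophages and dendritic cells, had 0 counts in 5 libraries and 5 counts in degenerated replicate 3 over 2 of its 7 transcripts and was not tested. The binding proteins Irf2bp1, Irf2bp2 and Irf2bpl had no listed transcript.

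Irf2, which can repress genes that other family members switch on, varied least between libraries of the 40 tested members, with 44.5, 51.2 and 45.0 CPM in control and 44.0, 48.5 and 51.7 CPM in degenerated libraries. Its coefficient of variation over the 6 libraries was 7.24%, and its log2FC 0.04 ± 0.15. The counts of its transcripts were far less steady. The protein-coding transcript Irf2-201 took 13.4%, 88.4% and 21.2% of the counts of Irf2 in control replicates 1, 2 and 3 and 99.1%, 35.7% and 24.7% in degenerated replicates 1, 2 and 3. Nearly all of the rest was given to Irf2-210, a transcript annotated for nonsense-mediated decay, which had 576, 79 and 552 counts in control and 0, 437 and 487 in degenerated libraries. High and low shares occurred in both groups. Irf9 showed the same with Irf9-202 and Irf9-203, both protein-coding: Irf9-203 held 2.77%, 45.2% and 49.1% of its counts in control and 7.76%, 6.40% and 50.7% in degenerated libraries.

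**Figure D3:**
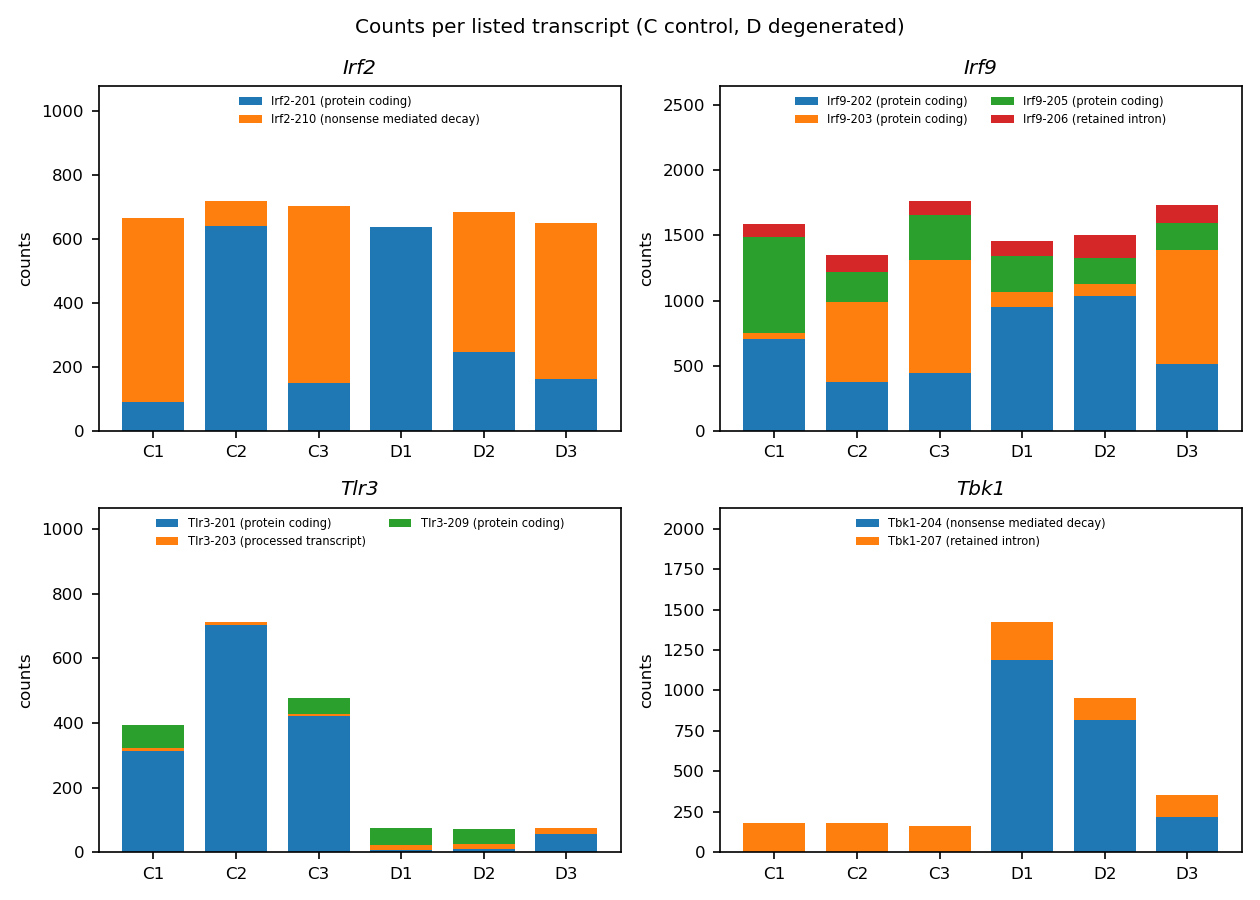
Counts of each listed transcript, stacked, in Irf2, Irf9, Tlr3 and Tbk1 in the 6 libraries (C control, D degenerated, vertical axis in counts). Transcripts with 30 or fewer counts in all are not drawn. In Irf2 and Irf9 the summed height is similar between libraries while its parts trade places, whereas Tlr3-201 is lower in the degenerated libraries and Tbk1-204 has counts only there.

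Ifit genes are among the most strongly interferon-induced genes known. Of 6 members, 5 were listed, 4 tested and none called, with a median log2FC of 0.14. Ifit3 had 150, 81.0 and 172 CPM in control and 157, 114 and 163 CPM in degenerated libraries, a log2FC of 0.11 ± 0.31. Ifit1 had 113, 72.9 and 146 against 103, 87.5 and 139 CPM, a log2FC of -0.01 ± 0.30. Ifit2 had 86.6, 53.3 and 73.6 against 80.1, 73.1 and 87.1 CPM, a log2FC of 0.17 ± 0.20. Control replicate 2 was the lowest library for all 3 of these genes, and both groups overlapped. Ifit1bl2, which shares the stretch of promoter with Ifit1, had at most 2.54 CPM in any library and was at 0 in control replicates 2 and 3, and its log2FC was 1.14 ± 1.75. Ifit3b, a close copy of Ifit3, had no listed transcript, and the stretches of 40 bases around its matches hold the same letters as those of Ifit3. Reads of the pair may have been split.

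Guanylate-binding proteins gave 6 tested members of 10, of which 4 were higher and 2 lower, and none was called. Gbp3 had 81.7, 40.4 and 85.4 CPM in control and 67.6, 50.7 and 107 CPM in degenerated libraries, with a log2FC of 0.12 ± 0.39. Gbp10 had 48.9, 16.3 and 47.4 against 39.9, 38.7 and 74.3 CPM, with a log2FC of 0.44 ± 0.49, and Gbp5, which also promotes inflammasome assembly, 27.7, 18.6 and 25.2 against 13.2, 21.2 and 47.0 CPM, with 0.19 ± 0.49. Degenerated replicate 3 was the highest library in each, and control replicate 2 the lowest in Gbp3 and Gbp10. Within Gbp3, the shares of its main protein-coding transcripts did not overlap between the groups. Gbp3-202 held 69.9%, 69.0% and 43.8% of its counts in control and 5.57%, 19.2% and 26.7% in degenerated libraries. Gbp3-203 held 26.7%, 29.4% and 54.2% against 88.1%, 79.4% and 68.9%. The difference in shares was not tested. Gbp7 had 2.23 to 10.8 CPM in control and 3.35 to 15.1 CPM in degenerated libraries. Gbp8 averaged 3.82 ± 4.59 against 1.59 ± 1.56 CPM (SD, n = 3 each), the lowest log2FC of all members at -1.27 ± 1.24, which turned to 0.36 without control replicate 1, and it overlaps Gbp9 on the same strand. Gbp9 had 45.7 to 73.0 and 43.3 to 59.4 CPM, of which 1.71% was in protein-coding transcripts.

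The HIN-200 genes on chromosome 1, whose promoters are printed above, had 11 members, of which 6 were tested, 3 higher and 3 lower. Ifi203 had 53.1, 65.0 and 44.2 CPM in control and 25.8, 43.5 and 39.9 CPM in degenerated libraries. The groups just missed overlapping, at 44.2 against 43.5, and the means were 54.1 ± 10.4 and 36.4 ± 9.35 CPM (SD, n = 3 each). Its log2FC of -0.57 ± 0.26 (edgeR unadjusted p 0.0686, adjusted p 0.555) was not called. Ifi207 had 17.1 to 22.4 and 17.5 to 29.9 CPM, Ifi206 3.06 to 6.44 and 4.01 to 12.9 CPM, and Ifi213 5.74 to 9.47 and 4.79 to 13.4 CPM, with log2FCs of 0.24 ± 0.27, 0.65 ± 0.55 and 0.16 ± 0.45. Degenerated replicate 3 was the highest in these last 3 genes. Ifi209 had 12.0, 59.3 and 24.7 against 14.0, 14.2 and 48.4 CPM, high in the same libraries as the B cell genes. The members of this cluster are close copies, so the split of reads between them is uncertain.

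Oas genes, which make short oligoadenylates when they meet double-stranded RNA, had 11 members, of which 7 were listed, 4 tested and none called. Oas3 had 6.09, 31.8 and 14.6 CPM in control and 5.75, 7.61 and 38.5 CPM in degenerated libraries, a log2FC of -0.02 ± 0.92 that turned to 0.74 on leaving out control replicate 2 and to -1.39 on leaving out degenerated replicate 3. Oas2 had 6.62, 8.07 and 7.34 against 6.50, 5.49 and 11.8 CPM, and its log2FC was 0.11 ± 0.37. Oas1g and Oasl2 had at most 8.13 CPM in any library. Isg20, an exonuclease of single-stranded RNA, had 7.48, 32.7 and 20.9 against 8.35, 9.30 and 21.6 CPM, and its high and low libraries were those of Oas3 in the control group.

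Mx1, a dynamin-like GTPase that traps viral ribonucleoproteins, had 11.3, 8.35 and 11.6 CPM in control and 13.5, 0.986 and 2.29 CPM in degenerated libraries, over 4 of 10 transcripts. Degenerated replicate 1 was the highest of the 6 libraries and the other degenerated libraries were the lowest. The log2FC was -0.89 ± 0.93 (unadjusted p 0.375), and without degenerated replicate 1 it was -2.68 with an unadjusted p of 0.00361 (edgeR, adjusted p 0.434). The transcript that held most of its counts differed from library to library. In control replicates 1, 2 and 3 it was Mx1-202 (91.8%), Mx1-205 (98.3%) and Mx1-201 (91.8%). In degenerated replicates 1 and 2 it was Mx1-205 (88.9% and 85.7%), and in degenerated replicate 3 Mx1-201 (100%). Mx1-205 is annotated for nonsense-mediated decay, so the high value of degenerated replicate 1 was mostly not protein-coding RNA. Laboratory mouse strains such as C57BL/6 are known for a defective Mx1 protein.

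The remaining members showed the same breadth. Ifi27l2a, which encodes a short hydrophobic protein, had 129, 88.7 and 132 CPM in control and 110, 128 and 248 CPM in degenerated libraries, a log2FC of 0.47 ± 0.35 that was 0.03 without degenerated replicate 3. Ifi35 had 72.5, 64.9 and 78.0 against 71.1, 86.6 and 104 CPM, a log2FC of 0.28 ± 0.18. Ifi27 had 54.4, 31.8 and 53.0 against 34.5, 31.8 and 43.5 CPM, and Ifi47, a GTPase induced by type II interferon, 22.0, 24.6 and 5.74 against 9.71, 17.9 and 1.97 CPM, with log2FCs of -0.34 ± 0.26 and -0.82 ± 0.87. Isg20l2, a nucleolar exonuclease of ribosome maturation, had 33.2 to 47.2 CPM in control and 34.9 to 38.5 CPM in degenerated libraries. Rsad2, Isg15, Oas1a, Gbp2 and 13 other members had no listed transcript and are not analysed here. The 11 members that were listed and not tested had at most 60 counts in a library.

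**Figure D4:**
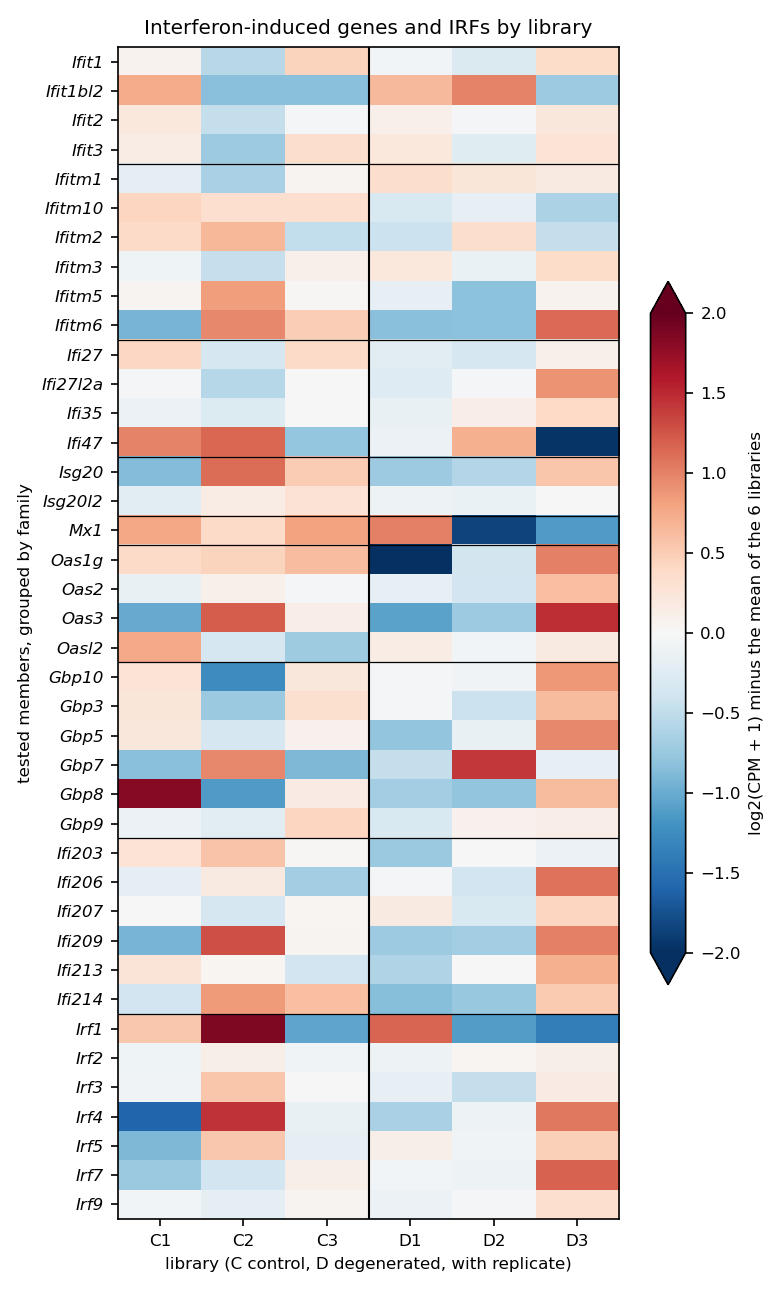
Log2(CPM + 1) of the 40 tested members in each library, minus the mean of the 6 libraries (colour scale, clipped at 2 in both directions), grouped by family. The column of degenerated replicate 3 is the reddest and no family has a sharp border between control and degenerated libraries.

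Single libraries led the pattern among the members. Degenerated replicate 3 was the highest library in 17 of the 40 tested members, or 42.5%, while it was the highest in 14.1% of all genes. Control replicate 2 alone was the lowest in 12 of the 40 members, against 18.3% of all genes, and the highest in 11, or 27.5%, against 17.9%. The median deviation of the members from their own means was 0.37 in degenerated replicate 3 on the scale of log2(CPM + 1), -0.15 and -0.14 in degenerated replicates 1 and 2, and -0.02, 0.11 and 0.06 in control replicates 1, 2 and 3. Without degenerated replicate 3 the median log2FC of the tested members was -0.24 in place of 0.01.

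The members thus fell into different library patterns, which are given as a description. Lowest in control replicate 2 were Gbp3, Gbp8, Gbp10, Ifi207, Ifi27l2a, Ifi35, Ifit1, Ifit2, Ifit3, Ifitm1, Ifitm3 and Irf9, most of them genes that many cell types induce with type I interferon. High in control replicate 2 and degenerated replicate 3 were Irf4, Irf5, Oas3, Isg20, Ifi209 and Ifitm6, as was the B cell sum. The neutrophil sum was highest in control replicates 2 and 3. Both sums were lowest in control replicate 1, as were these members except Oas3, which was lowest in degenerated replicate 1. The part of blood and marrow genes in either pattern was not tested. With a term for the libraries low in blood genes, an alternative chosen after seeing the data, the median log2FC of the members was 0.14, 0 were called higher and 1 lower (Ifitm10, log2FC -0.83, unadjusted p 0.00217).

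**Figure D5:**
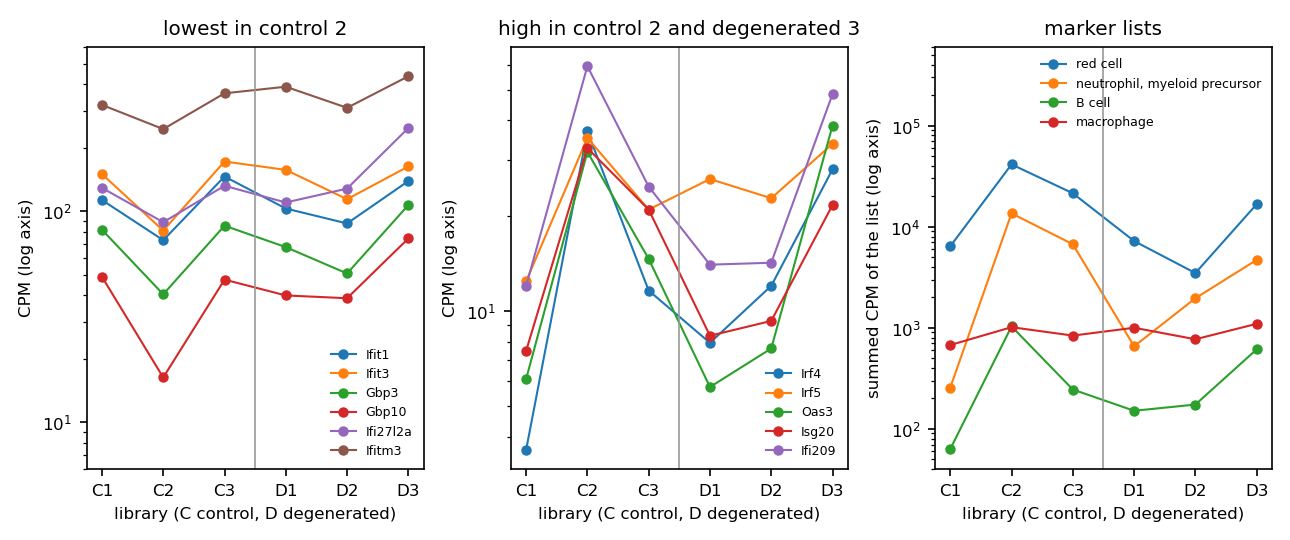
CPM per library (log axes) of members lowest in control replicate 2 (left), of members high in control replicate 2 and degenerated replicate 3 (middle), and summed CPM of 4 marker lists (right), with C for control and D for degenerated libraries. Ifit1 has 113 CPM in control replicate 1 and 72.9 in control replicate 2, where Irf4 has 3.64 and 36.9 CPM and the B cell list 63.2 and 1032 CPM.

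Members with the GAAA core were set beside those without it. Of 33 tested members with a window, 16 held the core. In these, 10 were higher in degenerated libraries, the median log2FC was 0.11, 0 were called, 5 were lowest in control replicate 2 and 9 were highest in degenerated replicate 3. Of the 17 without it, 7 were higher, the median was -0.17, 1 was called, 4 were lowest in control replicate 2 and 5 were highest in degenerated replicate 3. No test was made of the difference, since many members are neighbouring copies whose windows are not independent.

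Upstream of the members stand the interferons themselves. Of 21 interferon genes, 13 were listed, 8 had 0 counts in every library, among them the type II interferon Ifng, and 5 had at most 7 counts in a library. In a library at 0, as many as 3 counts (0.193 to 0.240 CPM) could have been missed. The type I interferon Ifnb1 had no listed transcript and is not analysed here. Of the 13 listed, 0 had enough counts to be tested, so the groups were not compared in interferon RNA.

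Receptors and their signal proteins were measured and none was called among 7 tested of 10. Ifngr1, a chain of the type II interferon receptor, had 117, 137 and 139 CPM in control and 126, 131 and 127 CPM in degenerated libraries, a log2FC of -0.03 ± 0.11. Ifnar2 and Ifnar1, the chains of the type I receptor, had log2FCs of 0.15 ± 0.17 and 0.53 ± 0.43, the latter over 1 of 8 transcripts. Il10rb, a chain of the type III receptor, had 1.89 to 2.55 CPM. Stat2 had 7.61, 5.38 and 5.93 against 6.16, 3.66 and 8.13 CPM, over 5 listed transcripts. The kinase genes Jak1 and Tyk2 had log2FCs of -0.47 ± 0.62 and -0.55 ± 0.98. Jak1 had only 0.710 to 2.69 CPM, over 3 of 8 transcripts, so its value describes that part. None of these differed beyond the spread between libraries. Ifngr2, listed with 1 of 3 transcripts, had at most 10 counts in a library and was not tested.

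Sensors of nucleic acids held both calls among the other pathway genes. Of 117 genes of the pathway lists, 99 were listed and 78 tested, and 1 was called higher and 1 lower, against 2.01% and 0.715% of all genes. Tlr3 (ENSMUSG00000031639, chromosome 8 from 45395665 to 45411080), the endosomal receptor for double-stranded RNA, had 26.7, 50.4 and 30.6 CPM in control and 6.16, 6.41 and 6.16 CPM in degenerated libraries, over 6 of 9 transcripts. The groups were far apart, with a log2FC of -2.52 ± 0.31 (edgeR unadjusted p 0.000156, adjusted p 0.105). DESeq2, by which 2.71% of all genes passed an adjusted p of 0.05, gave Tlr3 an adjusted p of 1.54e-10. Its fall was that of the protein-coding Tlr3-201, which had 313, 704 and 423 counts in control and 6, 11 and 58 counts in degenerated libraries. Per length the gap was smaller, with means of 23.1 TPM in control and 15.2 TPM in degenerated libraries. The shorter Tlr3-209 had 71, 0 and 48 against 52, 46 and 0 counts. The value of Tlr3 describes the listed transcripts, and the split of counts between them is uncertain.

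Tbk1 (ENSMUSG00000020115, chromosome 10 from 121546455 to 121586787), the kinase that phosphorylates IRF3, had 12.2, 12.7 and 10.4 CPM in control and 97.1, 67.0 and 27.8 CPM in degenerated libraries, a log2FC of 2.44 ± 0.47 (edgeR unadjusted p 0.00196, adjusted p 0.274). By DESeq2 the adjusted p of Tbk1 was 0.000104. Without control replicate 3 the edgeR unadjusted p was 0.0101 and the call was missed. Only 2 of 7 transcripts were listed and neither is protein-coding. Tbk1-204, annotated for nonsense-mediated decay, had 0 counts in all control libraries and 1189, 819 and 217 counts in degenerated libraries, while Tbk1-207, which retains an intron, had 163 to 184 and 132 to 231 counts. The value of Tbk1 therefore describes these transcripts and not its protein-coding RNA.

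Other genes of the pathway were mostly as wide as the members. In the list of other interferon-stimulated genes, 48 of 57 were tested, 31 were higher and 17 lower, the median log2FC was 0.16, and 0 were called. Over all genes 7016 were higher and 7102 lower, the median was 0.00, and 2.73% were called. At an unadjusted p under 0.05 by edgeR stood 4 of the 48, against 9.68% of all genes. These were Xaf1 (0.59), Fcgr1 (0.68), Lgals3bp (3.50) and Tap1 (-2.13), with adjusted p from 0.421 to 0.516 by edgeR. The groups did not overlap in 4 of the 48, Fcgr1 among them, against 17.7% of all genes. Fcgr1, a high-affinity antibody receptor of macrophages, had 17.1, 14.8 and 20.0 CPM in control and 26.5, 25.0 and 31.8 CPM in degenerated libraries, without overlap. Lgals3bp rested on degenerated replicate 1, with 67.5 CPM against 0.766 to 4.74 CPM in all other libraries. In this list too, degenerated replicate 3 was the highest library most often, in 18 of 48 genes or 37.5%, and control replicate 2 the lowest most often, in 15 or 31.2%. Feedback inhibitors such as Socs1, Samhd1 and Adar gave 10 tested genes, 5 higher and 5 lower, and 0 calls.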

How the data were processed

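RNA of the modiolus was sequenced in 6 libraries, 3 control and 3 degenerated, grouped by their labels. The authors aligned reads with Hisat2 2.1.0, evaluated expression with StringTie 1.3.3b and deposited raw counts per Ensembl transcript, not normalized. The submitters' processing notes name Bowtie 0.12.2 and the builds mm8 and mm10 instead. For the annotation, the counting step and its use of strand and of multiply matching reads, no method was given in the sources used here.

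In all, the deposited table lists 65535 transcripts, which make up 46.0% of those annotated in GENCODE M21 (GRCm38), whose names and coordinates are used here. Transcript counts were summed per gene, and 263 unmatched transcripts with 0.125% of the counts were left out. All annotated transcripts were listed for 17 of the 51 listed members and a part for 34, so values of the latter describe that part. In 6 tested members (Gbp9, Ifi214, Irf2, Oas1g, Oasl2 and Ifi27) most counts lay outside protein-coding transcripts. TPM were computed from the counts and the transcript lengths.

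The test was that of edgeR 4.0.16 on R 4.3.3, on genes passing filterByExpr (TMM factors from 0.983 to 1.02, robust quasi-likelihood F test, no covariates), with Benjamini-Hochberg adjustment over all genes. For a call, the criteria were those the paper gives for its knockout comparison, since it gives none for the present one. CPM use the TMM factors, and standard errors are the log2 fold change over the square root of F. The common biological coefficient of variation was 0.488 and the smallest adjusted p of any gene 0.0719. An exact permutation test of 3 against 3 libraries cannot go below 0.1, so none was run. The steps were tested on simulated counts.

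Alternatives were DESeq2 1.42.0, limma-voom (limma 3.58.1), RLE normalization, no filter, a mean count of at least 10, the replicate number as a block, genes with every transcript listed, each library left out, and, chosen after seeing the data, a term for libraries low in blood and marrow genes. The members, the marker and pathway lists and the tests were chosen with earlier results of these data known. Named by rule were members called or with an unadjusted p under 0.05, the member with the highest level per length in each family, interferon regulatory factors, receptors, Jak1, Tyk2, Stat2 and called pathway genes. Other genes were named after their values were seen. In a split by promoter pattern and in the order of libraries no test was made. Of the members, 1 is not reported here, nor is 1 gene of the pathway lists.

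The marker lists not given in the report were those of T and NK cells (20.5 to 65.7 CPM in control and 29.5 to 54.2 CPM in degenerated libraries), endothelium (101 to 125 and 104 to 110 CPM) and skeletal muscle (732 to 1325 and 331 to 522 CPM). Most of the muscle sum was Pvalb, which neurons also express (722 to 817 and 323 to 512 CPM), and without it the sum was 513 CPM in control replicate 3 and 3.52 to 10.3 CPM in the other libraries.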

Additional observations from a re-analysis of the deposited data

How the results depend on the processing

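The count of members called higher was 0 under every alternative, and the median log2 fold change of the tested members (0.01) was between 0.00 and 0.14 under the other tests, scalings, filters and terms on all genes. Among the 15 tested members with every transcript listed the median was 0.23, with 0 members called lower, since Ifitm10 has a transcript that is not listed, and 0 other pathway genes called higher and 0 lower. DESeq2 called 2 other pathway genes higher, Tbk1 and Fcgr1. When single libraries were left out, the median was -0.24 (without degenerated replicate 3) to 0.15, members called lower were 0 to 1 (Mx1 in place of Ifitm10 without degenerated replicate 1), other pathway genes called higher were 0 (without control replicate 3) to 2 (without degenerated replicate 1, with Slfn9) and those called lower 1 to 3 (without control replicate 1, with Tap1 and Trex1).

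Leaving out 1 library turned the direction of 20 of the 40 tested members. Irf4 turned to 0.25 in limma-voom, to 0.31 with the replicate block and to 0.82 with the term for blood and marrow genes, under which Oas3 turned to 0.44 and Ifngr1 to 0.01. With libraries left out, the log2 fold change ran from -0.80 to 1.06 for Irf4, -1.39 to 0.74 for Oas3, -5.05 to 0.16 for Irf1, -0.04 to 0.72 for Irf5, -0.02 to 0.10 for Irf2, -0.03 to 0.21 for Irf9, -0.23 to 0.33 for Gbp3, -0.47 to 0.51 for Gbp5, -0.42 to 1.72 for Gbp7, -2.45 to 0.36 for Gbp8, -0.16 to 0.32 for Ifit3, -0.36 to 0.17 for Stat2, -1.77 to 0.29 for Tyk2 and -0.12 to 0.00 for Ifngr1. The cause was not tested.

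Samples with the same replicate number did not deviate together, with correlations of 0.143, -0.086 and 0.066 for numbers 1, 2 and 3, and 3 of 6 libraries correlated best with their own number. With the replicate block, 1 member, Ifitm10, was called lower (-0.75, unadjusted p 0.00977) and 0 higher, and over all genes 218 were called in place of 385. DESeq2 called 785 genes over all, and 135 of 3470 were called among genes with every transcript listed. Depth limits what can be said of members with few counts, and the spread between 3 libraries limits the rest.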
